A study of Mus musculus with 12 samples.

Results

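The clustered histone genes are the replication-dependent genes for histones H1, H2A, H2B, H3 and H4. Their members were taken as every gene of the expression table whose symbol starts with Hist1h, Hist2h, Hist3h or Hist4h, leaving out the 1 such row that carries the pseudogene suffix -ps. This gave 70 genes of the 47069 in the table, with 69 different symbols because Hist2h2bb stands for 2 gene identifiers. By symbol, 56 belong to the Hist1 cluster, 11 to Hist2, 2 to Hist3 and 1 to Hist4, and 6 encode H1, 20 H2A, 19 H2B, 12 H3 and 13 H4.

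The study sequenced polyadenylated RNA from mouse liver at postnatal day 14, as isolated hepatocytes and as whole liver. Each tissue came from wild type (WT) mice and from Cdk1 Liv-/- mice, with 3 libraries in each of the 4 groups and 12 in all. Cdk1 Liv-/- mice carry Cdk1 flox/flox and Albumin-Cre, so that recombination takes place in hepatocytes and removes part of Cdk1, while the interstitial cells of the liver keep the gene. The labels give no allele for the controls beyond wild type, and the study's methods state that only male mice were used. The comparison of genotypes asks what loss of the mitotic kinase from hepatocytes does to the RNA of the liver, and that of tissues asks how far the isolated cells differ from the organ.

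Replication-dependent histone genes sit in tandem arrays without introns and are transcribed in S phase, when new DNA needs new nucleosomes. Their messages normally end just after a conserved stem-loop that the protein SLBP binds, and the cut is made by the U7 snRNP, so that they carry no poly(A) tail and most escape a library made by poly(A) selection. Some members also make a longer, polyadenylated message from a signal farther downstream, a form known from differentiated and non-dividing cells. Many replacement histones, encoded outside the clusters, have polyadenylated messages throughout the cell cycle.

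The stem-loop is what separates these genes from other mRNAs, and its sequence is printed for some members whose model holds it. They were taken from the abundant members and from those with higher values in mutant hepatocytes, called or not. Hist1h2bc, Hist1h2bl, Hist1h2bn and Hist2h2be have no stem-loop in their models and are not printed. Each sequence was read from the longest transcript model of the gene in the GENCODE M21 annotation of GRCm38. The 16 bases of the stem-loop are in capitals and its 5 neighbours on each side in lower case.
Hist1h1c: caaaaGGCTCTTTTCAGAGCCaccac
Hist2h2aa2: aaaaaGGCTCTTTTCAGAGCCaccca
Hist1h4i: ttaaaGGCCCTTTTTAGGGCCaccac
Hist1h4h: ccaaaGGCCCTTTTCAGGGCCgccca
Hist2h3c2: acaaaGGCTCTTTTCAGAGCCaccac
Hist1h3c: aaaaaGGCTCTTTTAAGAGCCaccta
Hist1h4a: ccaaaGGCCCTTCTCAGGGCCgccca
Hist1h2be: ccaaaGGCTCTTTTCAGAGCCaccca

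The histone stem-loop pattern lay in the longest model of 45 of the 70 members and took 8 forms. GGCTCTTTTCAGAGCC was the commonest, in 25 members. The H4 gene Hist1h4h held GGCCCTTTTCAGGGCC, the form of 7 members, in which the stem has more pairs of G and C than in the commonest form, and Hist1h4i and Hist1h4a differ from it by a single base in the loop. Counting every transcript model, 73 of 55450 annotated genes held the pattern, 46 of them members and 27 other genes.

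What follows the stem-loop in the models differed widely. In 21 members the model ended within 100 bases of the stem-loop and had no poly(A) signal AATAAA or ATTAAA in its last 60 bases. In 13 members the stem-loop was followed by such a signal at the end of the model, and in 11 the model ran more than 100 bases past the stem-loop without one. A further 3 members had the signal and no stem-loop, and 22 had neither, of which 17 have models of at most 500 bases that barely extend past the coding region. The models of Hist1h2bl and Hist1h2bn, at 381 bases each, are of that last kind, so their annotated ends say nothing about the transcripts made from them. Which annotation release the authors used is not stated, so these features describe M21 and not their alignment. Of the 70 members, 68 were matched by gene identifier and 2 (Hist1h2bh and Hist1h2bm) by symbol, and M21 lists 2 members, Hist1h2aj and Hist1h2al, as pseudogenes.

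**Figure D1:**
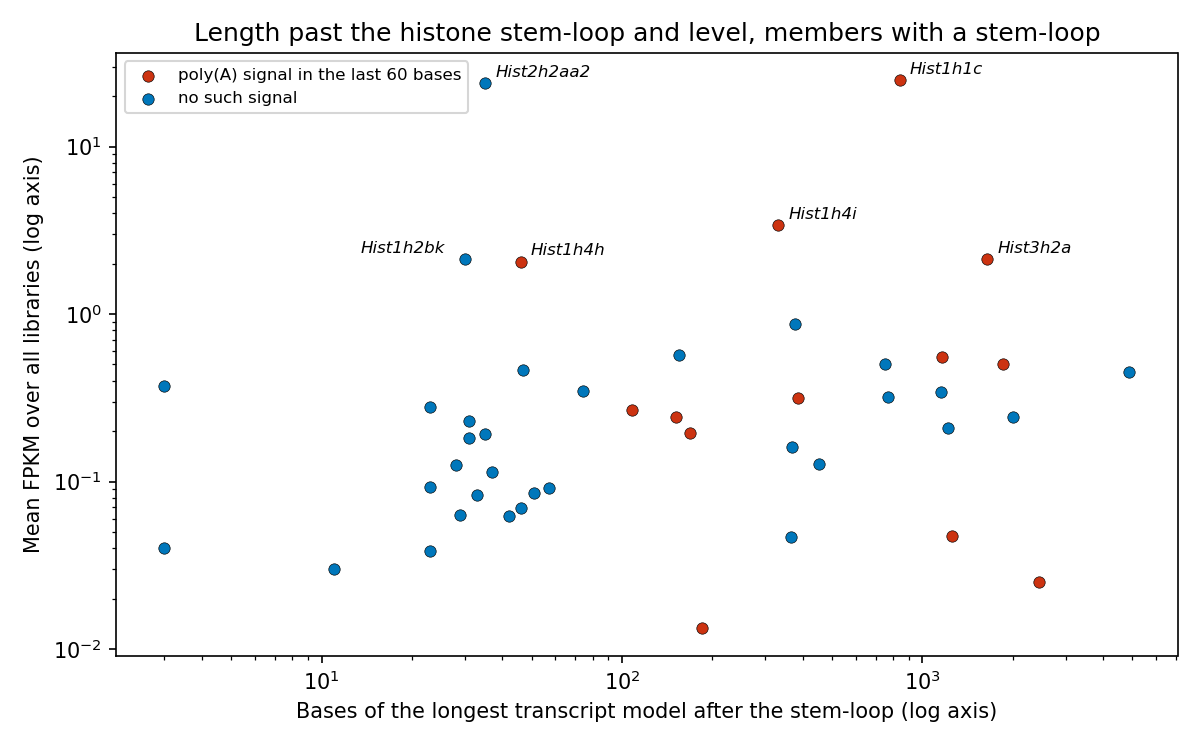
Bases of the longest transcript model that follow the stem-loop (log axis) against mean FPKM over the 12 libraries (log axis), for the 45 members with a stem-loop. Red points have a poly(A) signal in the last 60 bases of the model; Hist2h2aa2 reached 23.9 FPKM with 35 bases after its stem-loop, and Hist1h1c 24.8 FPKM with 840.

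The unit throughout is FPKM, fragments per kilobase of transcript scaled to the mapped total of the library, with no further normalization between libraries. FPKM summed over all genes ran from 649066 to 698265 per library, and 19982 to 22243 genes were above 0. Read totals were not used here, but low FPKM values of short single-transcript genes fell on evenly spaced steps, from which 1 FPKM over 1 kb corresponds to 34.7 to 49.95 reads in the different libraries. At those steps 32.1% to 43.7% of the values lay within 0.05 reads of a whole number, against a median of 7.3% to 7.8% over other step sizes. A member with a 500-base model at 0.1 FPKM therefore rests on only a few reads per library, and the read numbers below are estimates from these steps and the M21 lengths.

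Cdk1 itself checked the genotype labels. In hepatocytes it stood at 27.9, 20.4 and 28.2 FPKM in the WT libraries and at 9.68, 11.8 and 6.87 FPKM in the Cdk1 Liv-/- libraries. In whole liver it stood at 25.3, 22.7 and 21.5 FPKM against 11.7, 12.1 and 14.2 FPKM. Every mutant library was below every WT library of its tissue, with a log2 fold change of -1.40 ± 0.22 (SE; limma adjusted p 0.0148) in hepatocytes and -0.85 ± 0.10 (limma adjusted p 0.00353) in whole liver. The gene-level value also counts the exons that the recombined allele keeps, so the remaining FPKM does not measure intact Cdk1.

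A single library stood apart in a way its group does not explain. Whole liver Cdk1 Liv-/- replicate 3 had 158 FPKM of Xist, the RNA of the inactive X chromosome, where each other library had at most 0.14 FPKM. The summed FPKM of 4 Y-linked genes was 0 in that library and 48.4 to 62.1 in the others. It thus goes against the statement that only males were used, and results are given without it where that changes a call.

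Histone genes are few in reads here, with a small group of exceptions. A change was tested with limma on log2 of FPKM plus 0.5, two-sided, over the 17386 genes with a mean of at least 0.1 FPKM, and 45 of the 70 members passed that filter: 5 H1, 8 H2A, 13 H2B, 9 H3 and 10 H4 genes. The 25 that did not pass reached at most 0.65 FPKM in any library, and 3 of them (Hist1h2aa, Hist1h2ba and Hist1h2aj) were at 0 in all 12. The median of the mean FPKM was 0.342 over the members tested and 3.67 over all genes tested. Only 9 members had a mean of at least 1 FPKM, and 31 of the 45 tested were under 0.5 FPKM.

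The level was carried by 4 genes: Hist1h2bc, Hist1h1c, Hist2h2aa2 and Hist1h2bl held 84.0% of the members' summed FPKM, between 80.5% and 88.7% in single libraries, and the 10 most abundant held 92.8%. Hist1h2bc, an H2B gene and the most abundant member, stood at 71.0, 63.6 and 65.3 FPKM in WT hepatocytes and 95.9, 69.8 and 88.8 in Cdk1 Liv-/- hepatocytes. In whole liver it stood at 58.7, 47.0 and 68.7 FPKM in WT and 58.8, 65.9 and 69.6 in Cdk1 Liv-/-. The groups of each tissue overlapped, since the mutant hepatocyte library at 69.8 lay below the highest WT library. Its M21 model of 1156 bases holds neither a stem-loop nor a poly(A) signal near its end.

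Hist1h1c encodes a linker histone, which binds the DNA between nucleosomes. It stood at 36.7, 26.1 and 30.6 FPKM in WT hepatocytes, 32.9, 22.4 and 26.8 in Cdk1 Liv-/- hepatocytes, 22, 17.7 and 20.5 in WT whole liver and 18.6, 22.6 and 20.9 in Cdk1 Liv-/- whole liver. Genotypes overlapped in both tissues, and all 3 WT hepatocyte libraries were above all 3 WT liver libraries. Its model runs 840 bases past the stem-loop to a poly(A) signal 26 bases from the end.

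Hist2h2aa2, an H2A gene whose model ends 35 bases after the stem-loop, was nevertheless the third most abundant. In hepatocytes it stood at 21.6, 30.2 and 28.4 FPKM in WT and 15.4, 8.45 and 26.1 in Cdk1 Liv-/-, and in whole liver at 37.6, 27.0 and 32.6 FPKM in WT and 20.2, 20 and 19.5 in Cdk1 Liv-/-. The mutant liver libraries lay close together and below every WT liver library, while the hepatocyte genotypes overlapped. Every 75-base word of its model also occurs in Hist2h2aa1, a neighbouring copy listed at 0.80 FPKM or less in every library, so how the reads of this pair were split is uncertain.

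**Figure D2:**
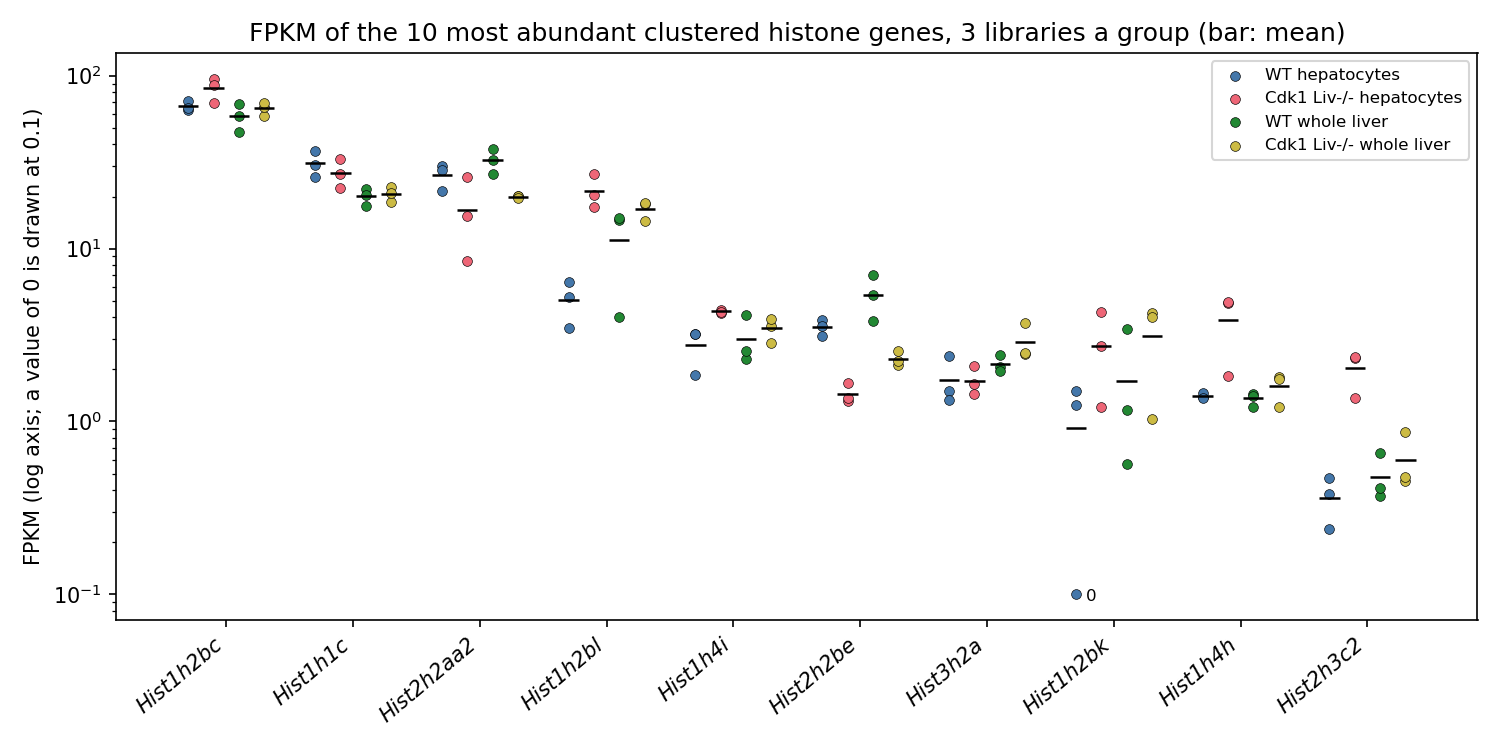
FPKM (log axis) of the 10 members with the highest mean, each point 1 library and each bar the mean of the 3 libraries of a group; a value of 0 is drawn at 0.1. Hist1h2bl, Hist1h4i, Hist1h4h and Hist2h3c2 separate the hepatocyte genotypes upward, and Hist2h2be lies lower in both mutant groups.

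The next members were far less abundant than these: Hist1h4i averaged 3.38 FPKM over the 12 libraries, Hist2h2be 3.17, Hist3h2a 2.12, Hist1h2bk 2.12, Hist1h4h 2.06 and Hist2h3c2 0.868. By class, H2B genes made up 58.4% of the summed member FPKM, H2A 17.9%, H1 16.6%, H4 4.83% and H3 2.24%. These shares describe what poly(A) selection retained and not what cells make of each histone. By model end, members with neither feature held 54.4% of the sum, those with a stem-loop and a later signal 22.1%, and those ending just after the stem-loop 18.6%, most of the last in Hist2h2aa2.

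Summed over all members, the level was 153, 142 and 150 FPKM in WT hepatocytes and 206, 145 and 195 FPKM in Cdk1 Liv-/- hepatocytes. Whole liver gave 165, 127 and 146 FPKM in WT and 134, 152 and 155 in Cdk1 Liv-/-. Replicate 2 of the mutant hepatocytes lay within the WT range and the other mutant libraries above it, and the liver genotypes overlapped. After setting aside the 4 most abundant genes, the other 66 members summed to 20.4, 16.1 and 21.0 FPKM in WT hepatocytes and 35.3, 26.9 and 33.0 in Cdk1 Liv-/- hepatocytes. These groups did not overlap. In whole liver the same sum was 32.3, 20.8 and 19.9 FPKM in WT and 21.5, 25.5 and 26.7 in Cdk1 Liv-/-, with overlap, and WT replicate 1 lay within the range of the mutant hepatocytes.

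In whole liver the summed H3 genes stood at 2.46, 2.30 and 1.87 FPKM in WT and 3.45, 2.93 and 5.17 in Cdk1 Liv-/-, the highest in the Xist-expressing replicate 3. These groups did not overlap as deposited, but divided by size factors they did, with WT replicate 1 at 2.50 and mutant replicate 2 at 2.47. Of the 9 H3 genes tested, 8 had a positive log2 fold change in whole liver, as did 73.1% of all genes tested. With size factors 7 did, where the median of all genes tested was 0.01. By limma 0 were called, and 0 had an unadjusted p under 0.05, against 8109 of 17386 genes.

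**Figure D3:**
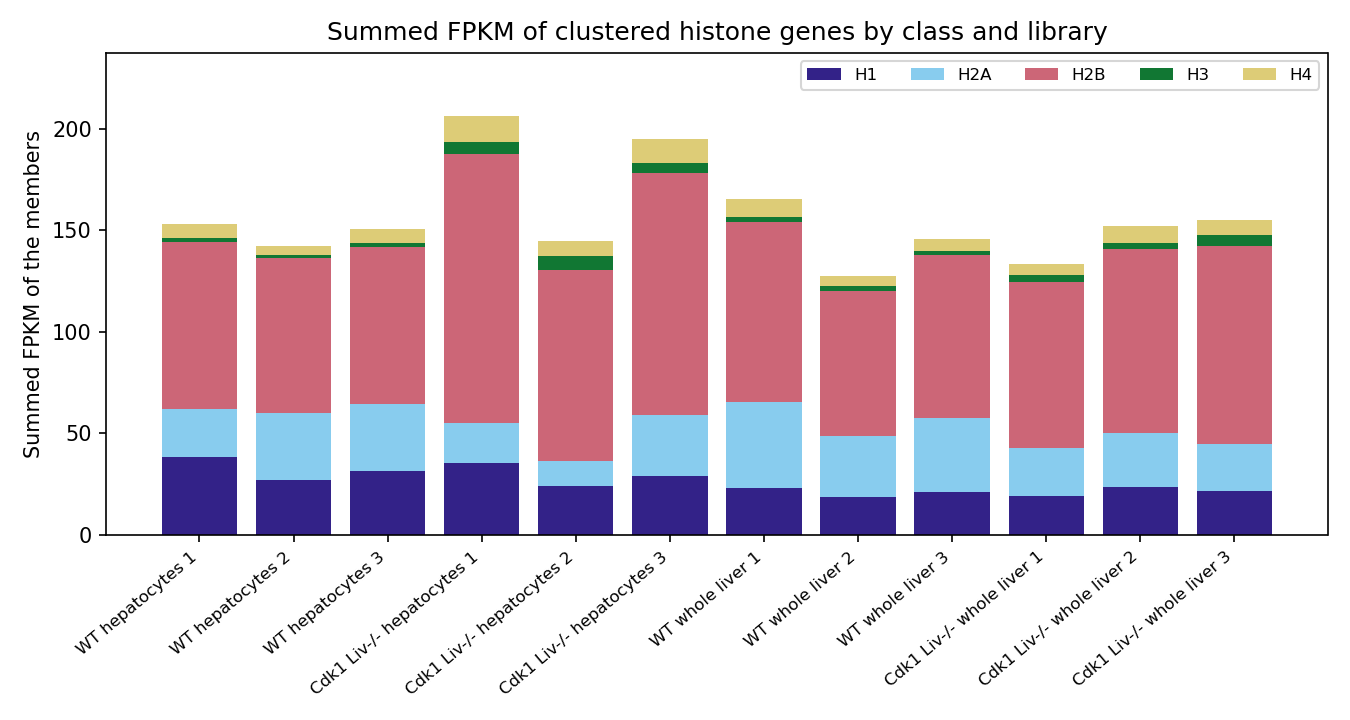
Summed FPKM of the members of each histone class, stacked, in each of the 12 libraries. H3 and H4 genes are a thin part of every bar; the H3 part is 5.28 to 6.84 FPKM in the mutant hepatocyte libraries and 1.85 to 1.93 FPKM in the WT hepatocyte libraries.

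In hepatocytes, a gene was called where the adjusted p of limma was at most 0.1 and the log2 fold change at least 1 in size. By that rule 6 of the 45 members tested were higher in Cdk1 Liv-/- than in WT, against 4.20% of all genes tested, and 1 was lower, against 2.17%. The median log2 fold change was 0.33 over the members tested and 0.05 over all genes tested, and it was 0.31 with size factors and 0.35 with the libraries rescaled to the same sum. Its size moved with the treatment of low values: 0.67 with a pseudocount of 0.1, 0.20 with a pseudocount of 1 and 0.18 without the filter. Without mutant replicate 1 it was 0.24. Of the 45, 34 were above 0 (75.6%), against 56.3% of all genes tested. In 11 members all mutant libraries were above all WT libraries and in 1 all were below. Among the 17386 genes tested this was so for 3573 and 2337, so groups without overlap are common here. Members of low level that passed the filter through the group in which they are high had to differ, which was so for Hist1h1a and Hist1h1b with the mutant hepatocytes, Hist1h2ah with the hepatocytes of either genotype and Hist1h4b with the mutant whole liver. So counts and medians over the members tested describe them and support nothing further. Leaving out single libraries moved the count of all genes called lower from 377 to between 168 and 592. In bulk RNA, fewer cells that make a message and less of it per cell cannot be told apart.

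Among members tested, Hist1h2bl, an H2B gene, had the largest log2 fold change of FPKM plus 0.5, though not the largest ratio of group means. Its FPKM was 3.48, 6.44 and 5.24 in WT hepatocytes (mean 5.05 ± 1.49 SD, n = 3) and 27.1, 17.4 and 20.4 in Cdk1 Liv-/- hepatocytes (mean 21.6 ± 4.93 SD, n = 3). The lowest mutant library was well above the highest WT library, and the estimated reads were 53.4 to 76.5 against 211 to 336. The log2 fold change was 2.01 ± 0.25 (SE) with a limma adjusted p of 0.00696, and it stayed called in each of the 16 alternatives tried, between 1.79 and 2.19. Of its 75-base words, 73.3% occur in another gene, most often in Hist1h2br, so the share of this rise that belongs to Hist1h2bl and not to a near copy is uncertain.

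Hist1h2bn, a further H2B gene, stood at 0, 0.24 and 0.27 FPKM in WT hepatocytes and 0.91, 0.85 and 1.07 in Cdk1 Liv-/- hepatocytes. The groups did not overlap, but the mutant values rest on 10.3 to 11.4 estimated reads each. The log2 fold change was 1.13 ± 0.19 (limma adjusted p 0.0189), and without WT hepatocyte replicate 1 it was 0.93, short of the fold threshold.

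Among H3 genes all 9 tested had a positive log2 fold change in hepatocytes, also under both rescalings, with a class median of 0.56, and 2 were called, where 56.3% of all genes tested were above 0 and 4.20% were called higher. Hist2h3c2 stood at 0.24, 0.47 and 0.38 FPKM in WT hepatocytes and 2.34, 2.37 and 1.37 in Cdk1 Liv-/- hepatocytes. All mutant libraries were above all WT libraries, with 45.0 to 89.4 estimated reads against 11.3 to 17.2. The log2 fold change was 1.53 ± 0.22 (limma adjusted p 0.0111), called in each of 15 alternatives.

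Hist1h3c stood at 0.16, 0.14 and 0 FPKM in WT hepatocytes and 0.77, 0.59 and 0.87 in Cdk1 Liv-/- hepatocytes, again without overlap. Its log2 fold change was 1.06 ± 0.16 (limma adjusted p 0.0120). Leaving out WT replicate 3 gave 0.93 and leaving out Cdk1 Liv-/- replicate 3 gave 0.98, so the call needs both libraries. The printed stem-loop of this gene has TTTA in its loop where most members have TTTC, and its model ends 74 bases after it.

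The called H4 genes were Hist1h4h and Hist1h4a. Hist1h4h stood at 1.38, 1.47 and 1.36 FPKM in WT hepatocytes and at 4.82, 1.84 and 4.94 in Cdk1 Liv-/- hepatocytes. Mutant replicate 2 was only slightly above the WT libraries and the others were far above them. The log2 fold change of 1.10 ± 0.34 had a limma adjusted p of 0.0970, close to the threshold, and the call was lost in 10 of 16 alternatives. Without WT replicate 1, 2 or 3 it was 1.09, 1.12 and 1.08 with limma adjusted p of 0.209, 0.175 and 0.194, and without mutant replicate 1 or 3 it was 0.91 and 0.89.

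Hist1h4a stood at 0.18, 0.08 and 0 FPKM in WT hepatocytes and at 0.89, 0.85 and 0.39 in Cdk1 Liv-/- hepatocytes. The groups did not overlap, on at most 16.7 estimated reads per library. Its log2 fold change was 1.03 ± 0.21 (limma adjusted p 0.0341), and it fell under the fold threshold without WT replicate 3 (0.92), mutant replicate 1 (0.91) or mutant replicate 2 (0.93). The more abundant H4 gene Hist1h4i stood at 3.22, 1.86 and 3.21 FPKM in WT and 4.43, 4.23 and 4.32 in Cdk1 Liv-/- hepatocytes, without overlap but with a limma adjusted p of 0.125 and a log2 fold change of 0.60.

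Hist2h2be, the only member called lower, is an H2B gene of the Hist2 cluster whose 2620-base model has a poly(A) signal and no stem-loop. Its FPKM was 3.87, 3.12 and 3.56 in WT hepatocytes (mean 3.52 ± 0.377 SD, n = 3) and 1.32, 1.66 and 1.36 in Cdk1 Liv-/- hepatocytes (mean 1.45 ± 0.186 SD, n = 3). In whole liver it was 7.03, 5.42 and 3.79 FPKM in WT (mean 5.41 ± 1.62 SD, n = 3) and 2.12, 2.55 and 2.23 in Cdk1 Liv-/- (mean 2.30 ± 0.223 SD, n = 3). Every mutant library was below every WT library of the same tissue, on 120 to 310 against 307 to 745 estimated reads. None of its 75-base words occurs in another gene.

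The log2 fold change of Hist2h2be was -1.04 in both tissues, ± 0.15 with a limma adjusted p of 0.0111 in hepatocytes and ± 0.21 with 0.0157 in whole liver. The fold sat at the threshold: in hepatocytes it was -0.98 without WT replicate 1, and in whole liver -0.85 without WT replicate 1, both on the uncalled side. Leaving out mutant replicate 1 of either tissue also brought it just short of the threshold. The direction was the same in every alternative.

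Most other members of each class moved less or did not pass the test. Among the H1 genes, Hist1h1e stood at 0.44, 0.17 and 0.07 FPKM in WT and 0.69, 0.50 and 1.00 in Cdk1 Liv-/- hepatocytes, and it passed the p threshold with a log2 fold change of 0.77 (limma adjusted p 0.0937). Hist1h1a and Hist1h1b reached the filter only through the mutant hepatocytes, with means of 0.0967 and 0.0689 FPKM over the other libraries, so their higher values there are no result. Hist1h1c, the abundant H1 gene, had -0.19 ± 0.18 (limma adjusted p 0.535), with overlap between the genotypes.

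H2A genes showed no common direction: 4 of 8 tested were above 0 in hepatocytes, with a median of -0.05 and 0 called by limma in either direction, and 0 at an unadjusted p under 0.05. Hist2h2aa2 had -0.79 ± 0.39 (limma adjusted p 0.236), and without mutant replicate 3 it was -1.18 with a limma adjusted p of 0.0876. Hist3h2a, the other abundant H2A gene, stood at 1.5, 1.33 and 2.40 FPKM in WT and 2.08, 1.64 and 1.45 in Cdk1 Liv-/- hepatocytes, which overlap.

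Of 13 H2B genes tested, 10 were above 0 in hepatocytes, with a median of 0.34. Hist1h2be stood at 0.33, 0.25 and 0.30 FPKM in WT and 1.12, 0.73 and 0.97 in Cdk1 Liv-/- hepatocytes, without overlap, for a log2 fold change of 0.85 ± 0.14 (limma adjusted p 0.0176) that is short of the fold threshold. At means of 0.293 and 0.940 FPKM, the 0.5 added before the log makes this value smaller. The same holds for the low genes Hist1h2bn, Hist1h3c and Hist1h4a. Over the alternatives, other pseudocounts included, they ran from 0.74 to 2.16, 0.66 to 2.18 and 0.64 to 2.17. Hist1h2bk had a larger log2 fold change, 1.31 ± 0.63, but its values of 1.51, 0 and 1.25 FPKM in WT and 2.73, 1.22 and 4.28 in Cdk1 Liv-/- overlapped (limma adjusted p 0.229). Hist1h2bg went down without passing the test, at -0.56. Counted by adjusted p alone, 9 members passed upward and 1 downward in hepatocytes, against 2108 and 1149 of the 17386 genes tested.

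**Figure D4:**
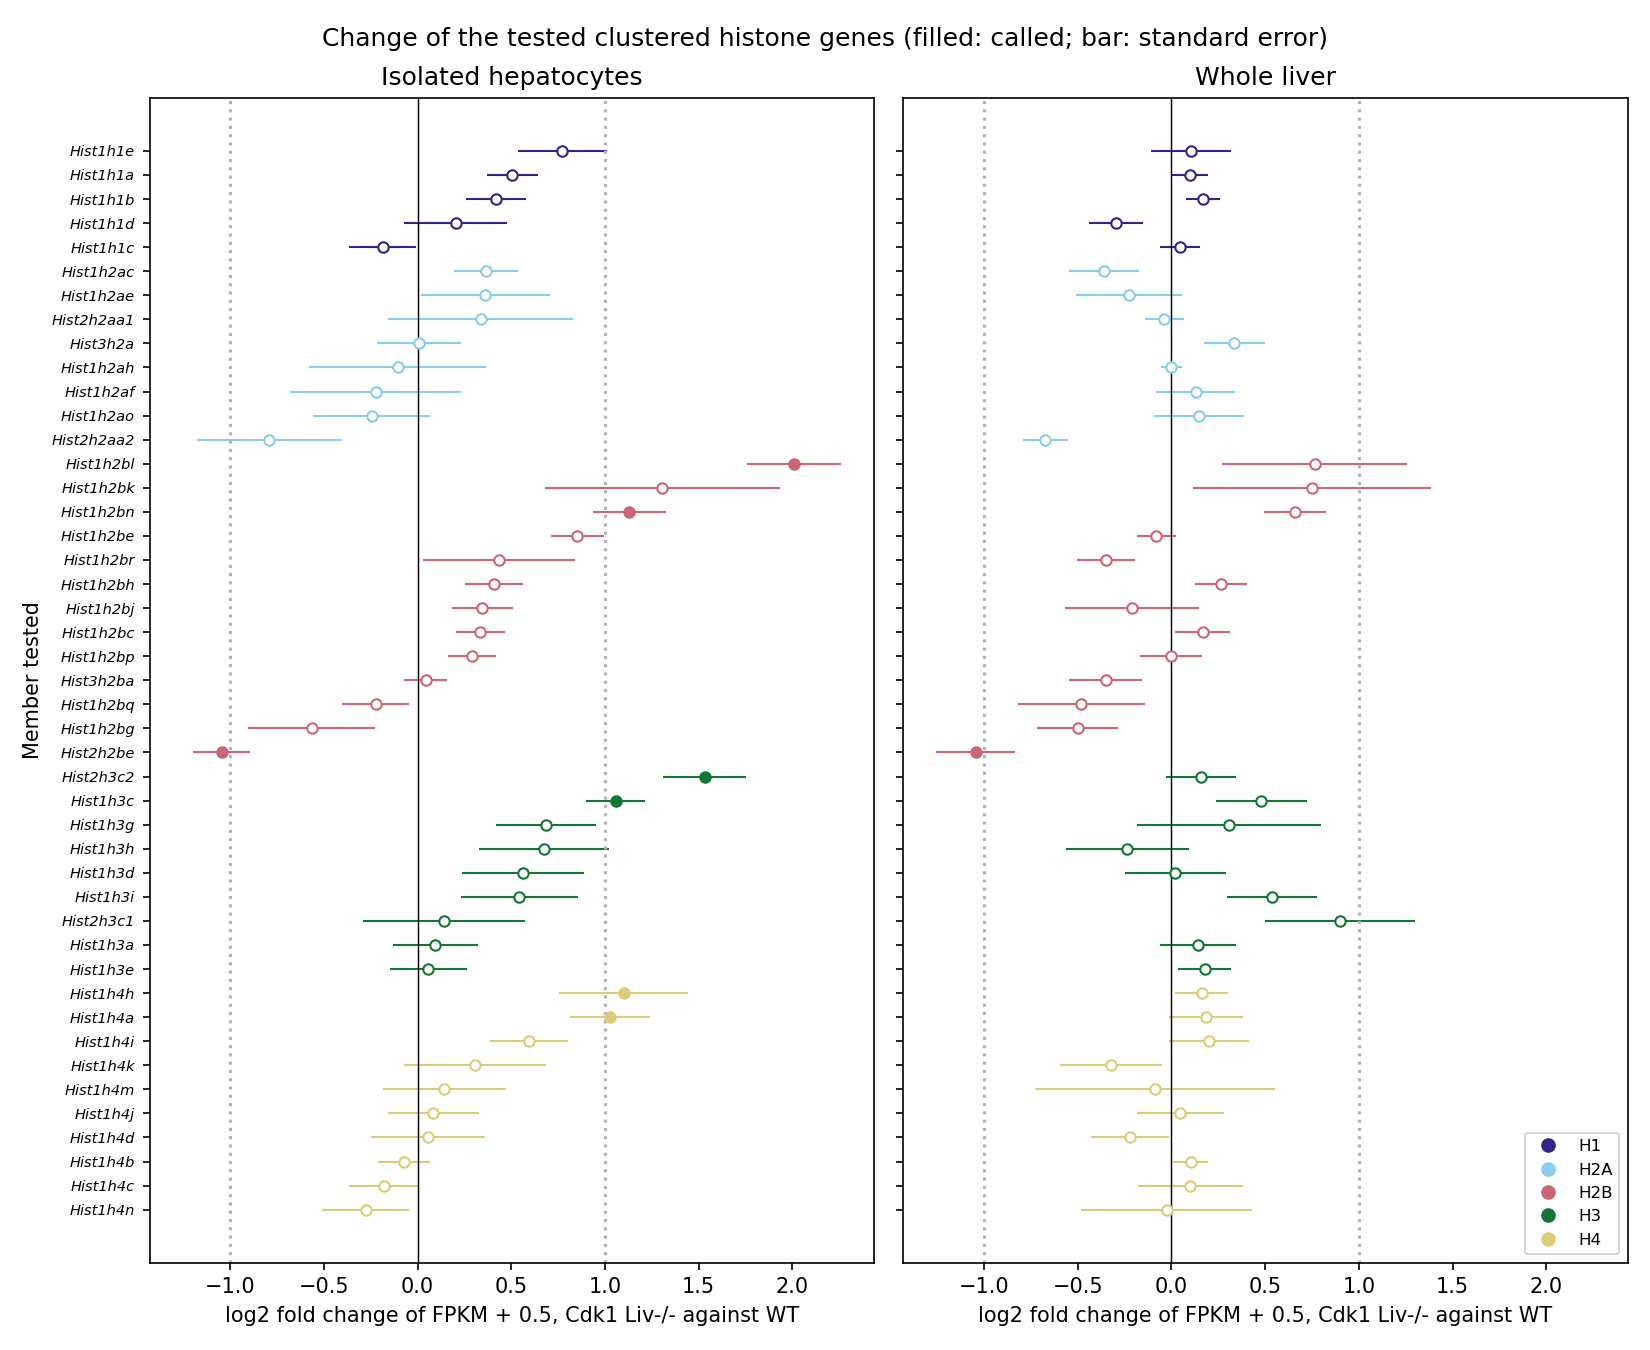
Log2 fold change of FPKM plus 0.5 between Cdk1 Liv-/- and WT for the 45 members tested, by class, in isolated hepatocytes (left) and whole liver (right). Bars are standard errors, dotted lines mark a change of 1 on the log2 scale, and filled points were called: 7 in hepatocytes and 1 in whole liver.

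In whole liver 0 of the 45 members tested were called higher in Cdk1 Liv-/- by limma, against 4.59% of all genes tested, and 1, Hist2h2be, was called lower, against 1.00%. All mutant libraries were above all WT libraries in 3 members and below them in 3, against 7506 and 1554 of the 17386 genes tested. At an unadjusted p under 0.05 there were 3 members in all, against 8109 of the 17386 genes tested, a smaller share. The members tested are lower in level (median of the mean 0.342 against 3.67 FPKM), so these shares do not compare like genes. The median log2 fold change was 0.10 over the members tested and 0.18 over all genes tested. Median-ratio size factors shifted the median of all genes by -0.17 in this comparison and moved the share of calls that were higher from 82.1% to 67.9%, and the members' median then became -0.00, so its sign in whole liver depends on the scaling. It also depends on single libraries: the median was -0.02 without mutant replicate 2 and 0.03 without WT replicate 2.

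By p alone, Hist1h2bn was higher in whole liver and Hist2h2aa2 lower. Hist1h2bn stood at 0.21, 0 and 0.15 FPKM in WT and 0.34, 0.51 and 0.57 in Cdk1 Liv-/- whole liver, without overlap (log2 fold change 0.66 ± 0.16, limma adjusted p 0.0286). For Hist2h2aa2 the log2 fold change was -0.67 ± 0.12 (limma adjusted p 0.0112), in the same direction as the overlapping hepatocyte groups.

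Hist1h2bl in whole liver rested on a single library. It stood at 14.7, 15.1 and 4.01 FPKM in WT and 14.5, 18.0 and 18.3 in Cdk1 Liv-/- whole liver. WT replicate 3 was low, near the WT hepatocytes, and the other WT libraries were within the mutant range. The log2 fold change was 0.76 ± 0.50 (limma adjusted p 0.273) and 0.17 ± 0.12 without WT replicate 3.

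Hist2h3c2 stood at 0.66, 0.37 and 0.41 FPKM in WT and 0.45, 0.48 and 0.87 in Cdk1 Liv-/- whole liver, and Hist1h4h at 1.45, 1.22 and 1.41 FPKM in WT and 1.21, 1.81 and 1.77 in Cdk1 Liv-/-. Both overlapped between genotypes, with log2 fold changes of 0.16 each. Without the Xist-expressing library, mutant replicate 3, the count of members called stayed at 0 higher and 1 lower, and the members' median was 0.04.

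The interaction, fitted over all 12 libraries, tested if the change between genotypes was unlike in the tissues, and in it a positive value means a larger rise in hepatocytes. Of the 45 members tested, 1 was called higher, against 0.805% of all genes tested, and 0 lower by limma, against 3.15%. At an unadjusted p under 0.05 there were 6 members, against 4106 of the 17386 genes tested. The shares of all genes called rest on single libraries. When a library was left out, 140 genes called higher became 28 to 196 and 548 called lower became 36 to 1098, the lowest without WT liver replicate 1. The median was 0.29 over the members tested and -0.11 over all genes tested, and the former was 0.15 without WT liver replicate 1. Size factors shifted the latter by 0.12 and moved the share of calls that were higher from 20.3% to 41.6%, and the members' median was then 0.34.

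The called gene was Hist2h3c2, with an interaction of 1.37 ± 0.30 (limma adjusted p 0.050). Hist2h3c2 had limma adjusted p of 0.136 without WT liver replicate 1 and 0.103 without mutant liver replicate 2. Hist1h2be passed the p threshold with 0.93 ± 0.18 (limma adjusted p 0.0401) and missed the fold threshold: it stood at 0.38, 0.47 and 0.39 FPKM in WT and 0.31, 0.31 and 0.48 in Cdk1 Liv-/- whole liver, which overlap. Without the Xist-expressing library, mutant liver replicate 3 (0.48 FPKM of Hist1h2be), it was 1.02 with a limma adjusted p of 0.0516, a call gained. For Hist1h2bl the interaction was 1.24 ± 0.58 (limma adjusted p 0.225), so its rise is not shown to differ between tissues. Without WT liver replicate 3 the interaction of Hist1h2bl was 1.83 with a limma adjusted p of 0.0565. For Hist2h2be it was -0.00 ± 0.26. Hist1h4h had 0.94 ± 0.39 (limma adjusted p 0.176) and, without mutant hepatocyte replicate 2, 1.34 (limma adjusted p 0.0144).

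The tissues themselves were compared within each genotype. In WT mice 0 members were called higher in hepatocytes than in whole liver by limma, against 0.0403% of all genes tested, and 0 lower, against 0.426%. At an unadjusted p under 0.05 there were 3 members, against 3272 of the 17386 genes tested. All hepatocyte libraries were above all liver libraries in 1 member and below them in 2, against 918 and 3603 genes. Here too the shares of all genes called rest on single libraries: 7 higher and 74 lower became 55 and 472 without WT hepatocyte replicate 3, and 1 and 0 without WT hepatocyte replicate 1. The median was -0.08 over the members tested and -0.10 over all genes tested, and the former changed sign, to 0.01, with size factors and also without WT liver replicate 1. Hist1h1c had the largest positive value, 0.61 ± 0.14 (limma adjusted p 0.137), and Hist1h2bl the largest negative, -0.92 ± 0.52.

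In Cdk1 Liv-/- mice 1 member was called higher in hepatocytes than in whole liver, against 1.51% of all genes tested, and 0 were called lower by limma, against 9.46%, with 16 at an unadjusted p under 0.05, against 8024 of the 17386 genes tested. The called gene was again Hist2h3c2, at 1.19 ± 0.23 (limma adjusted p 0.0114), from 1.37 to 2.37 FPKM in the hepatocyte libraries and 0.45 to 0.87 in the liver libraries. By adjusted p alone, 10 members were higher and 4 lower, against 1540 and 6234 of all genes tested. The median was 0.30 over the members tested and -0.19 over all genes tested, and the former was 0.18 without mutant hepatocyte replicate 1. Size factors shifted the latter by 0.21, moved the share of calls that were higher from 13.7% to 27.6%, and gave a members' median of 0.36. The genotype comparisons and the tissue comparisons share libraries, so these counts are not separate evidence.

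Because many members are near-identical, the values of members were also summed, an alternative chosen after the data were seen. A pair was joined where the shared 75-base words made up at least 50% of those of the gene with fewer, and pairs with a gene in common were chained, so a gene with a long model, such as Hist1h3d (22.1% shared) or Hist1h4h (42.4%), can be in a group. This joined 38 members into 8 groups, each named for its most abundant gene. In all, 29 members, 19 of them among those tested, share at least 50% of their 75-base words with some other gene. A sum adds the FPKM of copies whose models differ in length (381 bases for Hist1h2bl and 2197 for Hist1h2br), so it still depends on how reads were divided among them, and on reads shared with genes outside the group. Gm20634, which is not a member, holds 62.6% of the 75-base words of Hist2h3c2, 100% of those of Hist2h3c1, 78.5% of Hist2h3b and 88.9% of Hist2h2aa1, so the sums of the Hist2h3c2 and Hist2h2aa2 groups are the more uncertain.

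The Hist1h2bl group joins 6 H2B genes (with Hist1h2bk, Hist1h2br, Hist1h2bq, Hist1h2bn and Hist1h2bj). Its sum was 6.24, 7.54 and 7.65 FPKM in WT hepatocytes and 32.6, 20.7 and 26.7 in Cdk1 Liv-/- hepatocytes. The groups stood far apart, with a log2 fold change of 1.81 ± 0.18 (limma adjusted p 0.00372). In whole liver the sum was 20.6, 17.0 and 6.32 FPKM in WT and 20, 20.3 and 23.9 in Cdk1 Liv-/-, overlapping, with WT replicate 3 again low.

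The Hist2h3c2 group joins 3 H3 genes (with Hist2h3c1 and Hist2h3b) and summed to 0.73, 0.94 and 0.71 FPKM in WT and 2.34, 3.33 and 2.47 in Cdk1 Liv-/- hepatocytes. It kept the hepatocyte call, at 1.31 ± 0.18 (limma adjusted p 0.00929). Its sum in whole liver was 0.66, 1.04 and 0.58 FPKM in WT and 1.37, 0.80 and 2.41 in Cdk1 Liv-/-, and the interaction fell to 0.68 ± 0.37 (limma adjusted p 0.294). The difference between tissues called for Hist2h3c2 alone was therefore not called for the group. Hist2h3c1, all of whose 75-base words occur elsewhere, stood at 0, 0.55 and 0.17 FPKM in WT and 0.92, 0.32 and 1.46 in Cdk1 Liv-/- whole liver, which overlap.

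The sum of 5 further H3 genes was called although none of them was called singly. The Hist1h3d group (with Hist1h3g, Hist1h3h, Hist1h3i and Hist1h3b, the last not tested and not higher in the mutant by its mean) stood at 0.68, 0.70 and 0.76 FPKM in WT and 2.60, 2.36 and 1.49 in Cdk1 Liv-/- hepatocytes, without overlap, for a log2 fold change of 1.10 ± 0.20 (limma adjusted p 0.0231). The Hist1h4h group of 6 H4 genes, which also holds Hist1h4a, stood at 2.62, 1.84 and 2.17 FPKM in WT and 7.44, 2.79 and 6.19 in Cdk1 Liv-/- hepatocytes. It did not overlap either, but at 1.06 ± 0.34 (limma adjusted p 0.107) it was not called. The 12 genes of the Hist1h2af group, all H2A, summed to 1.18 ± 0.426 FPKM (SD, n = 3) in WT hepatocytes. In Cdk1 Liv-/- hepatocytes they summed to 1.62 ± 0.400 FPKM (SD, n = 3), and the libraries of the genotypes overlapped.

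**Figure D5:**
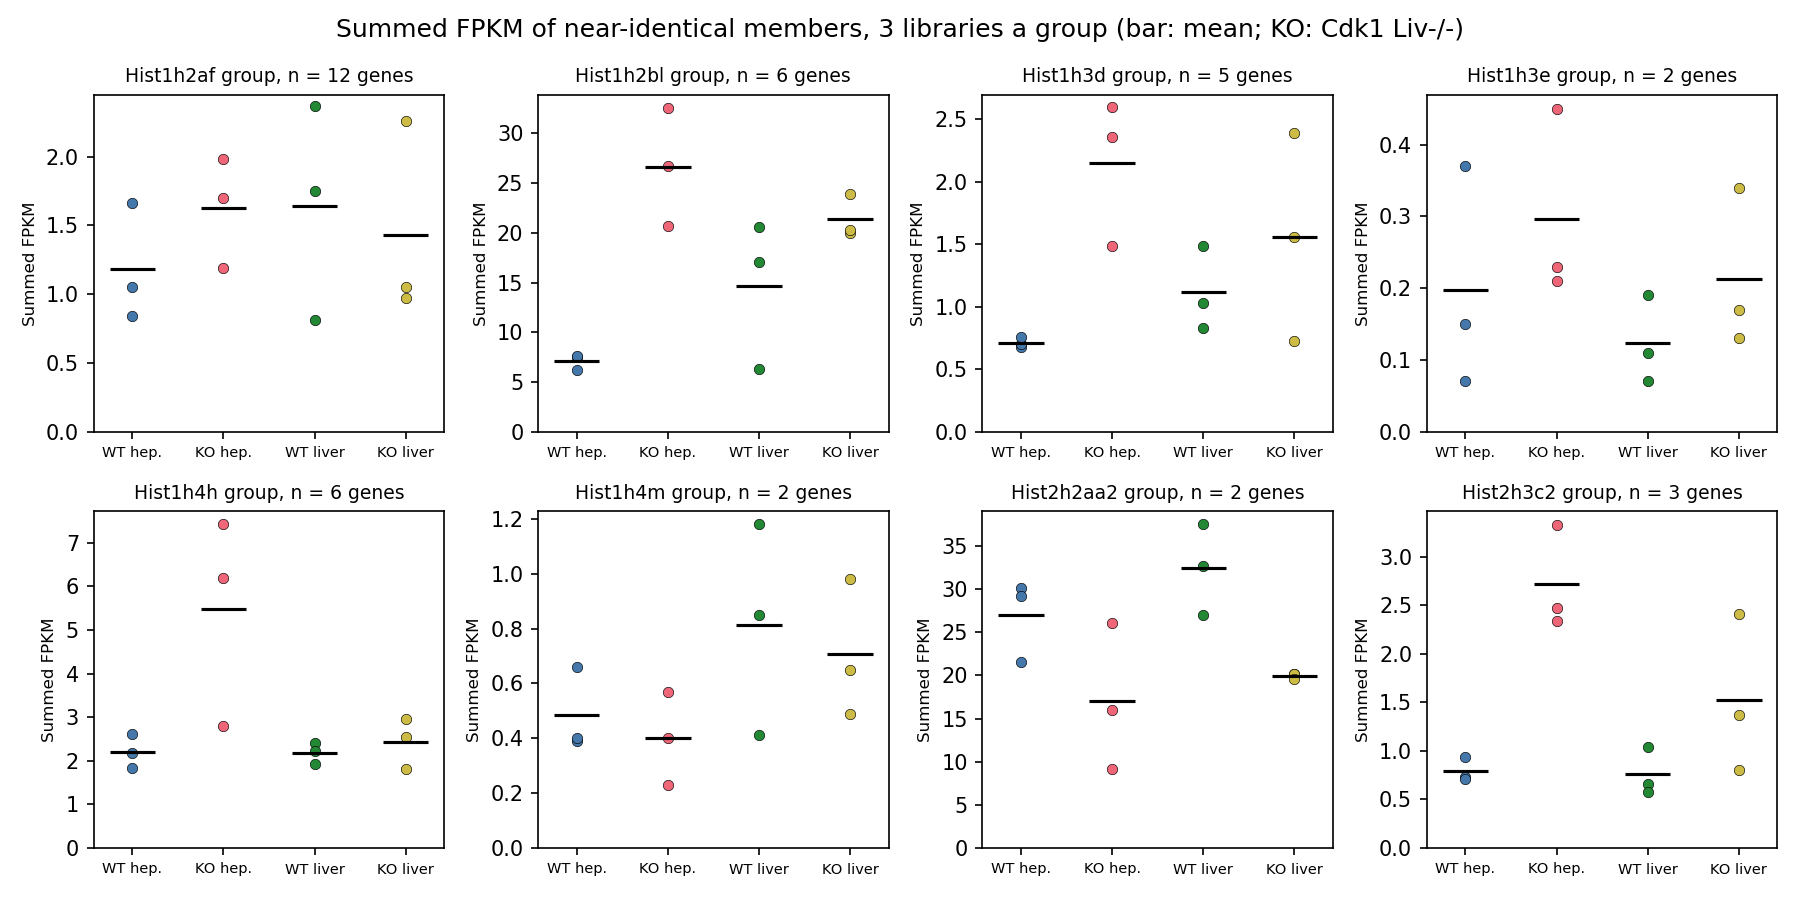
Summed FPKM of each of the 8 groups of near-identical members, each point 1 library and each bar the mean of 3 libraries, with a separate axis from 0 in each panel. The Hist1h2bl, Hist1h3d, Hist1h4h and Hist2h3c2 groups separate the hepatocyte genotypes; in whole liver the Hist2h2aa2 group is the one with a narrow mutant cluster, from 19.5 to 20.2 FPKM.

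The 6 members called higher in mutant hepatocytes are printed next, and their promoters show what they share and where they differ. Each sequence holds 250 bases before and 50 after the start site, from RefSeq on GRCm38.p6, with matches to CCAAT and to the TATA motif TATAAA, on either strand, in capitals. In the order printed, the positions are chr13:21716134-21716433 on the minus strand, chr13:21753826-21754125 on the plus strand, chr13:23745472-23745771 on the minus strand, chr3:96239078-96239377 on the minus strand, chr13:23530794-23531093 on the plus strand and chr13:23761200-23761499 on the minus strand.
Hist1h2bl: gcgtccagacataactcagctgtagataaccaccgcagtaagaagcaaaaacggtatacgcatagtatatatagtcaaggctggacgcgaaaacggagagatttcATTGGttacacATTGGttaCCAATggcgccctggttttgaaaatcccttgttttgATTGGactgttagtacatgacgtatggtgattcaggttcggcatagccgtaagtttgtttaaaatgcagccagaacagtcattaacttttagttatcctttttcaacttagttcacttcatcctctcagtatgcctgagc
Hist1h2bn: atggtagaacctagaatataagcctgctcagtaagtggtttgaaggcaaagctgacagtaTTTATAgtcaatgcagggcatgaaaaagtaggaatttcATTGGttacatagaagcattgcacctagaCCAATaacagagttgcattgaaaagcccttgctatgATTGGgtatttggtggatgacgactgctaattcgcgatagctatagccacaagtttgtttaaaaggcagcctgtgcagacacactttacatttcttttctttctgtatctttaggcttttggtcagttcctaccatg
Hist1h3c: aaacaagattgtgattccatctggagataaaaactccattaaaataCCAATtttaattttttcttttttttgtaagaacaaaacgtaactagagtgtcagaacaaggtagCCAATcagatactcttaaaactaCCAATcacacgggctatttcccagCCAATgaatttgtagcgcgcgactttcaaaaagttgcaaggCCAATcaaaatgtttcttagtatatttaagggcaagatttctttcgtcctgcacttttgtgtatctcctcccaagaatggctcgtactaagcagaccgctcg
Hist2h3c2: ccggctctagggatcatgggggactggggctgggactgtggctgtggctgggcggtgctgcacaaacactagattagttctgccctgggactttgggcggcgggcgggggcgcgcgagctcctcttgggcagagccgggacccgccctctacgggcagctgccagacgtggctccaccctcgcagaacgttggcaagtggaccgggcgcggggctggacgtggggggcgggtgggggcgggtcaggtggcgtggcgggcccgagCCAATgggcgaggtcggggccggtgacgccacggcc
Hist1h4h: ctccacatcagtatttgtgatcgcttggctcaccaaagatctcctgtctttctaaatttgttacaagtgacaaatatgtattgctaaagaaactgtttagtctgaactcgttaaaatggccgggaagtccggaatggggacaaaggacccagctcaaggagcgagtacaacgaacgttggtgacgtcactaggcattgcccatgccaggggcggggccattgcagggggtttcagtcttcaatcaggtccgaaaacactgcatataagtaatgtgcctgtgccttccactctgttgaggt
Hist1h4a: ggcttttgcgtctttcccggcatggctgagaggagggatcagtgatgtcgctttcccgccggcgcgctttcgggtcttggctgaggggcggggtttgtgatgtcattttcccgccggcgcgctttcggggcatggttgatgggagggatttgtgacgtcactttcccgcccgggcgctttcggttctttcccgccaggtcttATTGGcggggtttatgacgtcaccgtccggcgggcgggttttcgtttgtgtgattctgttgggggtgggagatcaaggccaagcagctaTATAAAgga

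The motifs were searched on both strands in 61 members matched in the promoter table and in all 27025 of its genes. CCAAT occurred in 85.2% of the members and 37.9% of all genes: in every promoter of the H1, H2A, H2B and H3 genes matched but in 3 of 12 H4 promoters. TATAAA occurred in 55.7% of members and 14.2% of all genes. The octamer ATTTGCAT occurred in 21.3% of members, all of them H2A or H2B genes, and in 1.8% of all genes. AAACACA, a motif described in H1 promoters, occurred in 4 of 5 H1 promoters and 7.1% of all genes.

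Hist1h2bl and Hist1h2bn both carry CCAAT and its complement more than once in all, Hist1h3c carries CCAAT repeatedly and Hist2h3c2 carries it after the start site. Of the H4 genes, Hist1h4a holds a match to CCAAT before the start site and to TATAAA after it, while Hist1h4h holds none of the motifs searched. The E2F-type motifs searched were TTTCGCGC, found in 14.8% of members and 0.3% of all genes, and TTTGGCGC, found in 0 members and 0.5% of all genes, and none of the 6 promoters printed holds either. These are matches of letters in a window and describe no binding. Divergent neighbours share part of a window, so the members are not independent counts.

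Replacement histones are encoded outside the clusters, and many enter chromatin throughout the cell cycle, which need not hold for each gene listed, such as H2afx and Cenpa. They gave a comparison within the same libraries. All 11 listed were tested. Their summed FPKM averaged 622 ± 35.7 (SD, n = 3) in WT and 636 ± 59.4 (SD, n = 3) in Cdk1 Liv-/- hepatocytes, and 725 ± 35.4 (SD, n = 3) in WT and 803 ± 37.6 (SD, n = 3) in Cdk1 Liv-/- whole liver. H3f3a, for the replacement histone H3.3, was the most abundant, at 196 ± 7.26 FPKM (SD, n = 3) in WT hepatocytes, above any clustered gene.

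In hepatocytes 1 of the 11 was called higher, against 4.20% of all genes tested, and 0 lower by limma, against 2.17%. At an unadjusted p under 0.05 there were 5, against 4939 of 17386 genes, and the median was 0.16 against 0.05. The called gene was H1fx, a linker histone variant, at 1.14, 1.13 and 1.29 FPKM in WT and 6.25, 3.94 and 3.53 in Cdk1 Liv-/- hepatocytes. The groups did not overlap, and the log2 fold change was 1.55 (limma adjusted p 0.0109). Cenpa, the H3 variant of centromeres, came next with 0.83 (limma adjusted p 0.0580), from 15.7 to 21.3 FPKM in WT and 26.0 to 42.3 in Cdk1 Liv-/-.

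The other replacement histones had log2 fold changes in hepatocytes of 0.67 for H2afx, 0.36 for H2afy2, 0.19 for H2afy, 0.16 for H2afz, 0.15 for H2afv and 0.07 for H2afj. Those below 0 were H3f3b at -0.10, H3f3a at -0.17 and H1f0 at -0.41. H1f0, the linker histone of resting cells, passed the p threshold downward (limma adjusted p 0.0722), from 47.5 to 55.1 FPKM in WT and 35 to 43.8 in Cdk1 Liv-/-.

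In whole liver 0 of the 11 replacement histones were called by limma, against 4.59% of all genes tested higher and 1.00% lower. At an unadjusted p under 0.05 there were 7, all upward, in a comparison where 8109 of 17386 genes passed and 12706 were above 0. The median was 0.36 against 0.18 over all genes tested. The changes were 0.98 for H2afy2, 0.77 for H1fx, 0.63 for Cenpa, 0.44 for H2afj, 0.37 for H2afx, 0.36 for H3f3b, 0.26 for H2afy, 0.11 for H2afz, 0.04 for H3f3a, -0.04 for H2afv and -0.22 for H1f0. In Cdk1 Liv-/- mice H2afy2 was called lower in hepatocytes than in whole liver, at -1.03. The interaction passed the p threshold for H3f3b alone, at -0.46.

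The genes that make and remove histone messages were tested as lists. None of the 19 genes for histone mRNA 3′ end formation was called between genotypes by limma. In hepatocytes 2 had an unadjusted p under 0.05, against 4939 of 17386 genes, and in whole liver 7, against 8109. The medians were 0.14 in both, against 0.05 and 0.18 over all genes tested. In whole liver 17 of the 19 were above 0 and 6 passed the adjusted p upward, where 73.1% of all genes were above 0 and 6610 of 17386 passed upward. Slbp, whose protein binds the stem-loop, stood at 14.3, 16.7 and 16.2 FPKM in WT and 15.4, 17.2 and 12.2 in Cdk1 Liv-/- hepatocytes, which overlap, at -0.08. The largest change in hepatocytes was that of Zfp473, a zinc finger partner of the U7 snRNP machinery, at 0.19, 0.13 and 0.17 FPKM in WT and 0.78, 0.73 and 0.54 in Cdk1 Liv-/-. These did not overlap, with 0.83 (limma adjusted p 0.0115), short of the fold threshold.

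Npat, the coactivator of histone gene transcription, had 0.40 in hepatocytes, and Snrpb, a core protein shared with the spliceosome and the most abundant of the list, had -0.12. In whole liver the largest values were 0.36 for Hinfp, which acts at H4 promoters, and 0.36 for Ncbp1, and the smallest were -0.11 for Zcchc8 and -0.01 for Ncbp2. Of the 10 genes of histone mRNA decay, 0 were called by limma in either tissue. At an unadjusted p under 0.05 there was 1 in hepatocytes, against 4939 of 17386 genes, and there were 4 in whole liver, against 8109. Their medians were 0.10 in hepatocytes and 0.19 in whole liver. Their largest change was that of the uridylyltransferase gene Zcchc6, at 0.39 in hepatocytes and 0.62 in whole liver. Its relative Zcchc11 had -0.18 in hepatocytes.

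Histone chaperones carry histones to chromatin, and 18 of the 19 listed were found in the table. In hepatocytes 1 was called higher, against 4.20% of all genes tested, and 0 lower by limma, against 2.17%. The called gene was Hjurp, the chaperone of the centromeric variant, at 62.4, 35.7 and 23.5 FPKM in WT and 66.6, 105 and 90.4 in Cdk1 Liv-/-. The mutant libraries were all above the WT libraries, though WT replicate 1 came close, and the log2 fold change was 1.19 (limma adjusted p 0.0916). Chaf1a, of the assembly factor that works behind the replication fork, had 0.96, and Chaf1b of the same complex had -0.14. In whole liver 0 were called by limma, against 4.59% of all genes tested higher and 1.00% lower. There 10 chaperones had an unadjusted p under 0.05, against 8109 of 17386 genes. The medians were 0.14 in hepatocytes and 0.23 in whole liver, against 0.05 and 0.18 over all genes tested.

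S phase is when clustered histones are made. Of 36 S phase genes tested in hepatocytes, 3 were called higher and 0 lower by limma, against 4.20% and 2.17% of all genes tested. At an unadjusted p under 0.05 there were 9, against 4939 of 17386 genes, a slightly smaller share. Of the 36, 32 were above 0, where 56.3% of all genes were, and the median was 0.36 against 0.05. Rrm2, a subunit of ribonucleotide reductase, stood at 15.0, 18.8 and 18.9 FPKM in WT and 64.9, 56.5 and 38.3 in Cdk1 Liv-/- hepatocytes. The groups were far apart, with 1.55 (limma adjusted p 0.00917). The others were Cdc45 at 1.21 and Gins2 at 1.10, both of the replicative helicase.

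Pcna, the most abundant of the S phase list, had 0.03 in hepatocytes and -0.10 in whole liver, and Tk1 had -0.23 and -0.65. In whole liver 0 S phase genes were called by limma, against 4.59% of all genes tested higher and 1.00% lower. At an unadjusted p under 0.05 there were 23, against 8109 of 17386 genes. The median was 0.22 against 0.18, and the largest values were 0.73 for Ccne1 and 0.53 for Gins2. The interaction was called for 1 gene, Rrm2, at 1.25 (limma adjusted p 0.0431), against 0.805% of all genes tested called higher and 3.15% lower. Slbp belongs to both this list and that of 3′ end formation, and Mcm2 to this list and the chaperones.

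Cell types other than hepatocytes could contribute histone messages, and their marker genes moved between the genotypes. In hepatocytes 7 of 8 sinusoidal endothelial markers were called lower in Cdk1 Liv-/-, against 2.17% of all genes tested, with a median of -1.5. Their summed levels were 147, 98.7 and 277 FPKM in WT and 73.1, 47.7 and 56.5 in Cdk1 Liv-/-. Stab1 was the most abundant. WT replicate 3 was highest and all mutant libraries were below all WT libraries.

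Of 10 Kupffer cell markers, 1 was called lower in hepatocytes, where 2.17% of all genes tested were called lower and 4.20% higher. The Kupffer markers had a median of -1.09 and sums of 325, 175 and 598 FPKM in WT and 203, 152 and 131 in Cdk1 Liv-/-, led by Cd5l. These overlap, and WT replicate 3 was highest, as it was in the stellate sums (193, 116 and 393 FPKM in WT) and the erythroid sums (148, 109 and 584 FPKM in WT). Stellate cell markers, led by Col3a1, had a median of -0.88 with 0 of 8 called by limma. Of these, 2 had an unadjusted p under 0.05, against 4939 of 17386 genes. Erythroid markers, led by Hbb-bs, had a median of -0.94 with 2 of 12 called lower. B cell markers had a median of -0.49 with 2 of 7 called lower, and T and NK cell markers -0.40 with 1 of 7. Neutrophil and myeloid progenitor markers had a median of -0.18 with 1 of 10 called higher. Cholangiocyte markers went the other way, with 2 of 5 called higher and sums of 19.6, 14.6 and 30.1 FPKM in WT and 66.8, 124 and 100 in Cdk1 Liv-/- hepatocytes, led by Spp1.

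In whole liver, where 4.59% of all genes tested were called higher and 1.00% lower, 5 of 10 neutrophil and myeloid progenitor markers were called higher. Their sums were 74.2, 45.7 and 71.7 FPKM in WT and 91.7, 318 and 259 in Cdk1 Liv-/-, led by S100a9. Stellate markers had 3 of 8 called higher and cholangiocyte markers 3 of 5. Kupffer and sinusoidal endothelial markers had 0 called by limma, with 4 of 10 and 2 of 8 at an unadjusted p under 0.05, against 8109 of 17386 genes. Erythroid markers had 1 of 12 called lower, B cell markers 0 of 7 with 3 at an unadjusted p under 0.05, and T and NK cell markers 1 of 7 lower.

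Hepatocyte markers had no common direction in hepatocytes: 5 of 9 were above 0, with a median of 0.16. By adjusted p 2 passed upward and 2 downward, against 2108 and 1149 of 17386 genes, and 1 was called lower, against 2.17%. Their sum, carried by the most abundant genes and led by Alb, went from 86070 FPKM in WT to 57570 in Cdk1 Liv-/- hepatocytes. In whole liver it went from 84420 to 63920 FPKM, with 0 called by limma and 4 at an unadjusted p under 0.05, against 8109 of 17386 genes. The sum of each marker list was above 0 in every library, the isolated hepatocytes included. Between WT tissues, limma called 0 of 10 Kupffer, 0 of 8 sinusoidal endothelial and 0 of 8 stellate markers lower in hepatocytes, against 0.426% of all genes. Their medians were -0.62, -0.003 and -0.99. Between mutant tissues 10 of 10, 8 of 8 and 8 of 8 were called lower, against 9.46%, with medians of -2.01, -1.71 and -2.52. The tissue comparisons and the interaction thus differ in their content of other cells. The part of these cell types in the histone values was not tested.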

How the data were processed

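RNA-seq libraries of isolated hepatocytes and whole liver (3 WT and 3 Cdk1 Liv-/- each) were deposited by the authors as FPKM per gene, made with STAR and RSEM 1.2.31 on mm10 from stranded poly(A) libraries and 75-base single reads, without normalization between libraries. From these, limma 3.58.1 (R 4.3.3; eBayes with a trend, two-sided, Benjamini-Hochberg over the 17386 genes with a mean of at least 0.1 FPKM) was fitted to log2 of FPKM plus 0.5, on 6 libraries for each genotype or tissue comparison and on all 12 for the interaction. A gene was called when its adjusted p did not exceed 0.1 and its log2 fold change reached 1 in either direction. The test was checked on simulated data. Sequences came from GENCODE M21 and RefSeq. Members and lists were chosen with earlier results of these data known. Genes named by rule are the 10 most abundant members, the top member of each class, up to 3 called members from each end of a comparison, the most abundant gene of a list and 2 from each of its ends, every replacement histone and Cdk1; Hist1h2be, Hist1h2bg, Hist1h1a, Hist1h1b, Hist1h2ah, Hist1h4b, Hist1h1e, Hist2h3c1 and members named in copy groups were chosen after their values were seen. Alternatives were other pseudocounts, filters, scalings, call rules and fits, a replicate block, leaving out each library, and summed copies.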

Additional observations from a re-analysis of the deposited data

Results flagged for a closer look

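The genotype change in hepatocytes minus that in whole liver passed the interaction test of limma over 12 libraries for 2 members and 1 replacement histone. It was 1.37 for Hist2h3c2, an H3 gene that rose in hepatocytes and overlapped between genotypes in whole liver, and 0.93 for Hist1h2be, an H2B gene with the same pattern. For H3f3b it was -0.46: this gene stood at 124 to 129 FPKM in WT and 154 to 172 in Cdk1 Liv-/- whole liver, without overlap, and at 114 to 136 and 111 to 126 FPKM in hepatocytes, with overlap. With near-identical copies summed, the Hist2h3c2 group had an interaction of 0.68 (limma adjusted p 0.294) and was not called. The part of other cell types in these differences was not tested.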

How the results depend on the processing

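Counts of members called moved with the settings as follows, the cause not being tested except where fewer genes were tested. For hepatocytes, 6 higher became 2 with a pseudocount of 1 and 2 with a filter of 1 FPKM, under which 9 members remain for testing, 8 with a pseudocount of 0.1, 9 by adjusted p alone, 4 without moderation of the spread, 4 with copies summed, 5 without the filter, 5 with size factors, and 3 to 5 when single libraries were left out; 1 lower became 0 with a pseudocount of 1 and 0 to 2 without single libraries. For whole liver, 0 higher became 1 with a pseudocount of 0.1 and 1 by adjusted p alone, and 0 to 1 without single libraries; 1 lower became 0 with a pseudocount of 1, 2 by adjusted p alone and 0 to 1 without single libraries. For hepatocytes against whole liver in Cdk1 Liv-/- mice, 1 higher became 7 with a pseudocount of 0.1, 0 with a pseudocount of 1, 0 with a filter of 1 FPKM, 2 with median-ratio size factors, 10 by adjusted p alone, 0 with near-identical copies summed (chosen after seeing the data) and 1 to 3 without single libraries; 0 lower became 2 with a pseudocount of 0.1, 4 by adjusted p alone and 0 to 1 without single libraries. For the interaction, 1 higher became 2 with a pseudocount of 0.1, 0 with a filter of 1 FPKM, 2 with size factors, 2 by adjusted p alone, 0 with copies summed and 0 to 3 without single libraries. The counts of 0 for WT tissues and for members lower in the interaction held in every alternative run.

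The labels do not say if the replicate numbers pair the samples. Deviations of same-numbered libraries from their group means correlated between -0.318 and 0.239. Differently numbered libraries were not set beside them, so these values do not decide the question. With a replicate block the members called were 6 higher and 1 lower in hepatocytes, 0 and 1 in whole liver, 0 and 0 between WT tissues, 1 and 0 between mutant tissues and 1 and 0 in the interaction, the same counts as without it; under the block Hist1h4h lost its hepatocyte call and Hist1h2bk gained one. The values of most members rest on a few estimated reads, and the size of change that could be detected at that depth was not tested. Reads shared by copies, and transcript models without an annotated end, limit what a value of a single gene means.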
